A study of Mus musculus with 63 samples.

Results

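A set of 10 genes that sort cortical interneurons into classes was followed cell by cell in single neurons of the mouse primary visual cortex (V1). They were taken from the deposited table by their symbols, and all 10 were found among its 20183 genes. They are Sst, Vip, Npy, Tac1, Crh, Penk and Cck, which encode neuropeptide precursors, Pvalb and Calb2, which encode calcium-binding proteins, and Cnr1, which encodes the cannabinoid receptor CB1. The rule that picks them reads symbols only.

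Cortical interneurons release GABA, and most of them also make peptides that are packed into dense-core vesicles and released during strong activity. Somatostatin (Sst), vasoactive intestinal peptide (Vip) and parvalbumin (Pvalb) mark classes of interneurons that hardly overlap, and neuropeptide Y (Npy), calretinin (Calb2) and corticotropin-releasing hormone (Crh) mark subsets within or beside them. Cholecystokinin (Cck) and CB1 together mark basket interneurons whose GABA release is dampened by endocannabinoids, but Cck transcripts are also found in many cortical pyramidal neurons. Proenkephalin (Penk) gives rise to enkephalins, which act on opioid receptors, and Tac1 to substance P.

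The cells were somata drawn into a pipette from layer 2/3 of V1 of wild type C57BL/6 mice aged 70 days, under light anesthesia and after calcium imaging during moving gratings. A cell that answered nearly every presentation was called light-sensitive (LS), and a cell that answered hardly any was called NS. Smart-seq2 libraries, which copy full-length mRNA of 1 cell, were made from 46 LS and 17 NS cells, and the filters of the study, applied to the deposited values, left 35 LS and 12 NS cells. Which mouse a cell came from is not labelled, so each group counts as 1 sample, no test between groups was made, and every SD is the spread between cells. Unless all 63 cells are named, values are those of the 47 cells left.

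Values are FPKM, fragments per kilobase of exon, scaled to the depth of the library. Whole reads were recovered from their steps. The 35 LS cells held 365342 to 2508520 reads on the listed genes (median 870649) and the 12 NS cells 148948 to 883187 (median 316308), so a low level was easier to miss in NS cells. Most NS libraries also carried reads over odorant, vomeronasal and taste receptor genes, which cortical neurons do not use. Their mean level, as a percentage of the FPKM that reads spread evenly over all exons would give, had a median of 2.15% in LS and 35.4% in NS cells. It was at or above 10% in 4 LS and 9 NS cells. This receptor level is given below beside single cells. Where 0 cells had a read, the share allowed is 3 over the number of cells, a rule apart from the exact intervals. Both cover counting error only, since PCR reads without molecular identifiers are not independent molecules.

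Cells were called glutamate-marked where the summed FPKM of Slc17a7 (the vesicular glutamate transporter) and Neurod2 exceeded that of Gad1 and Gad2 (the enzymes that make GABA), and GABA-marked where the reverse held. This gave 30 glutamate-marked, 4 GABA-marked and 1 unmarked LS cell, and 2 glutamate-marked, 6 GABA-marked and 4 unmarked NS cells. Slc17a7 had reads in 30 of 30 glutamate-marked LS cells and in 0 of the 4 GABA-marked LS cells. In 3 of the 6 GABA-marked NS cells (NS_6, NS_7 and NS_11) no single marker exceeded 81.4 FPKM, with receptor levels of 84.0% to 92.8%.

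**Figure D1:**
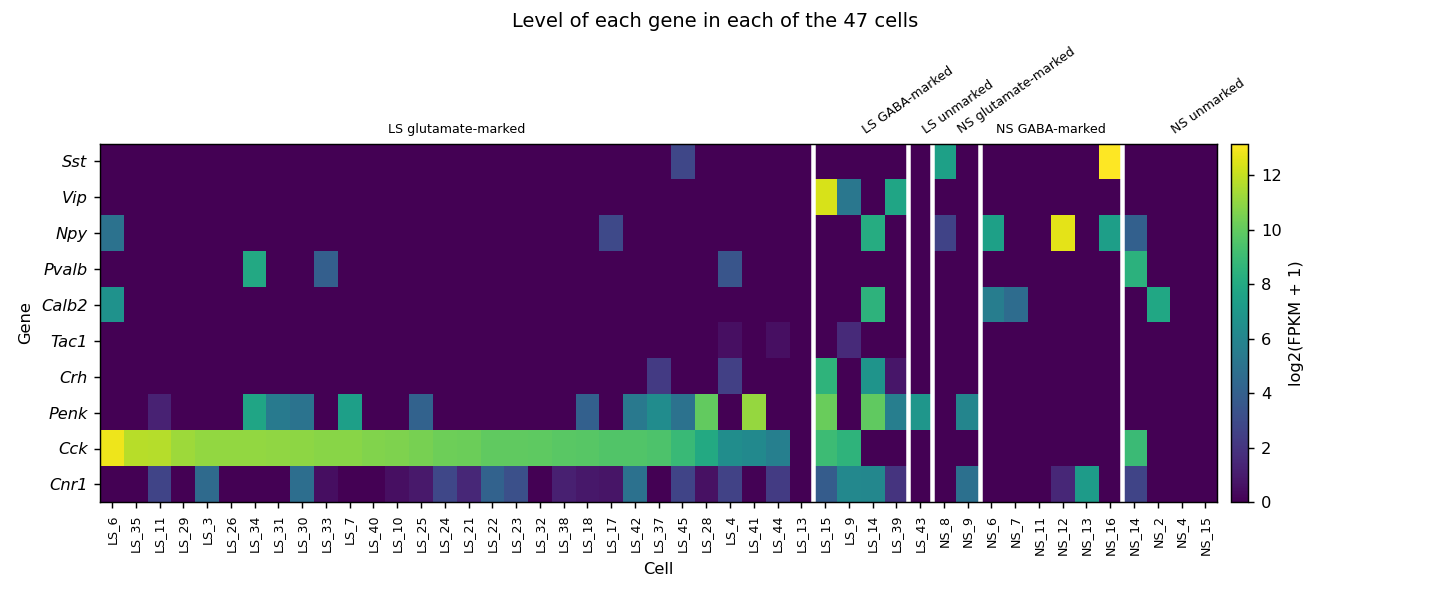
Level of the 10 genes (rows) in the 47 cells (columns), as log2(FPKM + 1), by group and marker class and, within a class, from the highest to the lowest Cck. Cck fills 29 of 30 glutamate-marked LS columns, Vip lies in 3 GABA-marked LS cells, and the highest Sst and Npy lie in the GABA-marked NS cells NS_16 and NS_12.

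Of the members, 7 had a promoter entry in RefSeq (build GRCm38.p6), and Crh, Penk and Calb2 had none in the table used. The 120 bases upstream of the start site are shown for Cck, the member found in most LS cells, for Vip, found in GABA-marked LS cells alone, and for Npy, highest in an NS cell. Each is written 5′ to 3′ on the strand of the gene, and capitals mark the half-site of the cyclic AMP response element, TGACG or its reverse complement CGTCA, the sequence bound by CREB.
Cck, chr9:121495695-121495814, minus strand: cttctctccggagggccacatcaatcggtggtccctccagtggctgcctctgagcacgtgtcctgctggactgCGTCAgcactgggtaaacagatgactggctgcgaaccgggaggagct
Vip, chr10:5639098-5639217, plus strand: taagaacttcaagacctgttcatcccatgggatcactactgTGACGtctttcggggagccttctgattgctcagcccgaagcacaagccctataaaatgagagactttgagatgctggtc
Npy, chr6:49822590-49822709, plus strand: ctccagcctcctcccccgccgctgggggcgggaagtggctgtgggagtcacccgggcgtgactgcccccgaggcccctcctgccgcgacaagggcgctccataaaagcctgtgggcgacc
Sst, chr16:23890877-23890900, minus strand, the 24 bases around the site: tccttggcTGACGTCAgagagaga
The half-site starts 47 bases before the Cck start and 79 bases before the Vip start, and the window of Npy holds none. In Sst both half-sites overlap as the palindrome TGACGTCA, which starts 48 bases before the RefSeq start. That start lies inside the GENCODE span of Sst given below, so the element falls within the annotated gene, where an exon overlaps the window. Of the 7 members with an entry, 4 hold a half-site (Cck, Vip, Sst and Tac1, in the last at 43 bases) and 3 do not (Npy, Cnr1 and Pvalb). Of 32851 mouse promoter windows of 120 bases, 11.7% hold a half-site on either strand and 1.24% the palindrome. These letters describe the promoters and say nothing of binding in these cells.

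Cck (chr9, positions 121489824 to 121495694 of GRCm38, minus strand) was the member with the highest mean in LS cells, 1313 ± 1380 FPKM (SD, n = 35 cells) against 42.3 ± 146 FPKM (SD, n = 12 cells) in NS cells. The LS cells ran from 0 to 7243 FPKM with a median of 996 FPKM, and the NS cells from 0 to 507 FPKM with a median of 0 FPKM. Of 35 LS cells, 31 had reads (88.6%, with an exact binomial interval of 73.3% to 96.8%), while 1 of 12 NS cells did (8.33%, 0.211% to 38.5%). The groups overlap, since 4 LS cells (LS_13, LS_14, LS_39 and LS_43) had no read and the NS cell NS_14 reached the level of a low LS cell. The 276 Cck reads of NS_14 are all that the NS group held, against 35666 reads (exact Poisson interval 35297 to 36038) over the LS cells.

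At the depth of the NS cells, the median LS level corresponds to 256 reads of Cck in the cell of median depth and 121 in the shallowest. With every library thinned to 200000 reads (4 NS cells held fewer and dropped out), Cck had reads in 88.6% of 35 LS and 12.5% of 8 NS cells. The log2 ratio of the group means, with 1 FPKM added to each, was 4.92 and became 10.36 without NS_14. Among all 63 cells it was 2.81, since the removed NS_17, which carried reads of all 4 class markers, held 2256 FPKM of Cck. Among the 31 LS and 3 NS cells with a receptor level under 10% it was 2.79, NS_14 being 1 of the 3.

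Within LS cells, Cck followed the glutamate markers. The 30 glutamate-marked cells had 1501 ± 1402 FPKM (SD, n = 30 cells), from 0 to 7243 FPKM with a median of 1191 FPKM, and 29 of them had reads (96.7%, exact binomial interval 82.8% to 99.9%). Cck was among the 100 highest genes of the cell in 26 of the 30, with a median rank of 11.5. It was the highest of the 10 members in 27 of them, and 24 cells held at least 500 FPKM. The 4 GABA-marked LS cells held 379 FPKM (LS_9), 516 FPKM (LS_15) and 0 FPKM (LS_14 and LS_39), a mean of 224 ± 265 FPKM (SD, n = 4 cells). Both classes overlap, and no GABA-marked cell reached the median of the glutamate-marked ones. No GABA-marked NS cell had a read of Cck (0 of 6, which allows a share of up to 50%). The 2 glutamate-marked NS cells, NS_8 and NS_9, had none either, with receptor levels of 98.8% and 43%. Their class is uncertain, since both also held reads of Gad2 (13.4 and 0.340 FPKM) and became GABA-marked with wider marker lists. Of the LS cells 30 of 35 were glutamate-marked, and of the NS cells 2 of 12. For Cck, group and marker class can therefore not be told apart.

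Penk (chr4, positions 4133531 to 4138819, minus strand) came next with an LS mean of 174 ± 451 FPKM (SD, n = 35 cells), against an NS mean of 5.20 ± 18 FPKM (SD, n = 12 cells). LS cells ran from 0 to 2137 FPKM with a median of 0 FPKM, and 16 of 35 had reads (45.7%, exact binomial interval 28.8% to 63.4%). In NS cells the only reads were the 51 of NS_9, at 62.4 FPKM, in a library with a receptor level of 43% whose 99th percentile of receptor genes was 133 FPKM. The log2 ratio of the means was 4.82. It was 4.24 without LS_41, the highest cell, and 7.45 without NS_9.

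High Penk was found in few LS cells, of both marker classes. The glutamate-marked LS_41 and LS_28 had 2137 and 1026 FPKM, the GABA-marked LS_15 and LS_14 had 1120 and 990 FPKM, and the next cell, LS_34, had 214 FPKM. The class of LS_41 rests on 0.575 FPKM of Slc17a7 and 0.753 FPKM of Neurod2, with Gad1 and Gad2 at 0, where the class median of Slc17a7 was 82.7 FPKM. LS_41 held 56.1% of the summed Penk level of its class. In LS_41 Penk ranked 11th among all genes, and in LS_28 14th. The GABA-marked LS cells had a mean of 540 ± 598 FPKM (SD, n = 4 cells) and the glutamate-marked ones 127 ± 424 FPKM (SD, n = 30 cells). It was detected in 3 of the 4 and 12 of the 30. The log2 ratio of these means was 2.08, and 3.21 without LS_41, which takes it past 2.5. The unmarked LS_43 held 118 FPKM of Penk and none of any other member.

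In the glutamate-marked LS cells with the highest Penk, Cck was low. LS_41 had 74.5 FPKM of Cck and LS_28 had 251 FPKM, both far under the class median of 1191 FPKM, and these were the only glutamate-marked cells where Penk exceeded Cck. Among the 36 glutamate-marked LS cells before the filters, the 4 with at least 500 FPKM of Penk held 74.5 to 452 FPKM of Cck, and the other 32 had a median of 1229 FPKM of Cck, 6 of them under 500 FPKM. The level of 500 FPKM was chosen after the values were seen. Below it Penk and Cck were found together, as in LS_34 with 214 FPKM of Penk and 2067 FPKM of Cck, and all 12 glutamate-marked cells with Penk reads also had Cck reads. Over the 30 cells the correlation of log2(FPKM + 1) was weak (Pearson r = -0.08, Spearman rho = -0.16), with 18 cells at 0 for Penk.

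Cck also stood lower in LS cells with much Fos, an immediate-early gene induced by neuronal activity. In the 6 glutamate-marked LS cells with Cck under 500 FPKM, Fos ran from 452 to 1516 FPKM (median 829 FPKM), and in the other 24 from 0 to 1998 FPKM (median 77.8 FPKM). In the 4 glutamate-marked cells with Fos at 0, Cck ran from 996 to 3419 FPKM. Those 6 cells are LS_41, LS_28, LS_4, LS_44, LS_45 and LS_13, and LS_4, LS_44 and LS_45 became GABA-marked with wider marker lists. The correlation over the 30 cells was r = -0.52 and rho = -0.67, and over all 35 LS cells, where no class enters, r = -0.53 and rho = -0.66. The cells share no library, and FPKM of 2 genes of a cell share its total. The correlation of Cck with the reads of the cell was r = -0.05 and with its number of genes above 1 FPKM r = -0.21 and rho = -0.37. With Slc17a7 in the same 30 cells it was r = 0.53 and rho = 0.32. The 6 cells with low Cck held 0.575 (LS_41) to 23.6 FPKM (LS_45) of Slc17a7, where the class median was 82.7 FPKM. Summed microglia markers of these 6 cells ran from 16.6 FPKM (LS_41) to 1279 FPKM (LS_44), with a class median of 89.4 FPKM. Their summed astrocyte markers ran from 14.2 FPKM (LS_28) to 967 FPKM (LS_13), with a class median of 27.7 FPKM. The part of these marker levels in the contrast of Fos was not tested. For Penk and Fos the correlation was r = 0.33 and for Cnr1 and Fos r = 0.21.

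**Figure D2:**
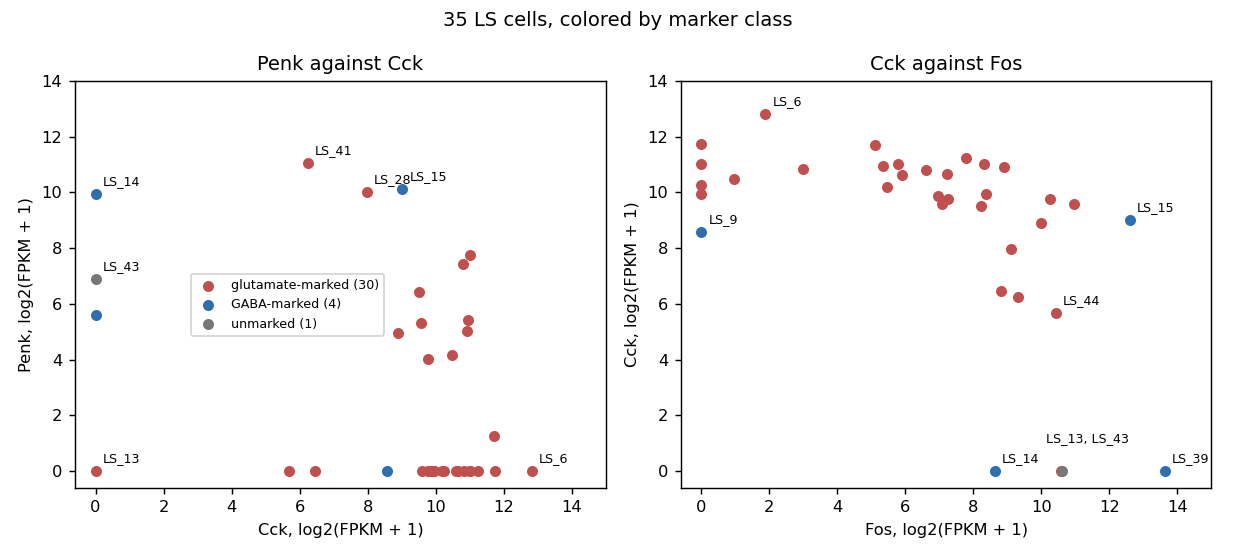
Penk against Cck (left) and Cck against Fos (right) in the 35 LS cells, all as log2(FPKM + 1), with 1 point per cell colored by marker class. LS_41 and LS_28 stand high in Penk and low in Cck, and the 6 glutamate-marked cells with Cck under 500 FPKM all have at least 452 FPKM of Fos.

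Cnr1 (chr4, positions 33924593 to 33948831, plus strand) was low and widespread. The LS mean was 8.24 ± 16.9 FPKM (SD, n = 35 cells), with values from 0 to 68.7 FPKM with a median of 0.796 FPKM, and the NS mean was 15.4 ± 43 FPKM (SD, n = 12 cells), from 0 to 149 FPKM with a median of 0 FPKM. It was detected in 23 of 35 LS cells, a share of 65.7% (exact binomial interval 47.8% to 80.9%), while 4 of 12 NS cells (33.3%, 9.92% to 65.1%) held reads. The log2 ratio of the means, -0.83, turned to 1.14 without NS_13, which alone held 81.0% of the summed NS level, and fell to -2.90 among cells with a receptor level under 10%, so it gives no direction. With libraries thinned to 200000 reads the shares with a read were 51.4% of 35 LS and 50% of 8 NS cells. In 16 LS and 2 NS cells Cnr1 exceeded the 99th percentile of the receptor genes of the same cell. The median LS level corresponds to 1.93 reads in the NS cell of median depth, so a level this low could be missed there.

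The highest Cnr1 levels lay in GABA-marked cells. The 4 GABA-marked LS cells had 68.7 FPKM (LS_9), 68.3 FPKM (LS_14), 13.4 FPKM (LS_15) and 2.89 FPKM (LS_39), a mean of 38.3 ± 35.1 FPKM (SD, n = 4 cells). The 30 glutamate-marked LS cells had 4.50 ± 8.12 FPKM (SD, n = 30 cells), with reads in 19 of them and at most 29.1 FPKM (LS_42). LS_9 and LS_14 thus stood above every glutamate-marked cell, while LS_15 and LS_39 fell within their range. In LS_9, Cnr1 came with 379 FPKM of Cck and 36.1 FPKM of Vip, in a library with a receptor level of 28%. The 99th percentile of the receptor genes of LS_9, 94.3 FPKM, exceeded its Cnr1 level. In NS_13, with 754 FPKM of Gad1 and 588 FPKM of Gad2, Cnr1 was the only member with reads.

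Vip (chr10, positions 5639218 to 5647617, plus strand) had reads in 3 cells, all of them GABA-marked LS cells. LS_15 had 5266 FPKM from 13233 reads, LS_39 had 211 FPKM from 328 reads, and LS_9 had 36.1 FPKM from 25 reads. The class of LS_39 rests on 9.25 FPKM of Gad1 alone, with Gad2, Slc17a7 and Neurod2 at 0. Its summed astrocyte and microglia markers were 489 and 1060 FPKM, where the LS medians were 35.3 and 94.4 FPKM. The receptor level was 1.16% in LS_15, and in LS_9 the 99th percentile of its receptor genes, 94.3 FPKM, exceeded its Vip level. None of 30 glutamate-marked LS cells (which allows a share of up to 10%) and none of 12 NS cells (up to 25%) had a read of Vip. It is listed at 0 in those groups, so no fold is given. In LS_15 Vip ranked 8th among all genes, and Cck, Crh, Penk and Cnr1 were present beside it.

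Crh (chr3, positions 19693401 to 19695396, minus strand) followed the same class. It was at 372 FPKM in LS_15, 112 FPKM in LS_14 and 0.743 FPKM in LS_39, and 0 FPKM in LS_9. Of the glutamate-marked LS cells only LS_4 and LS_37 had reads, at 4.63 and 3.74 FPKM, and their 9 reads stand against 1049 in the GABA-marked cells. No NS cell had a read (0 of 12, which allows up to 25%).

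**Figure D3:**
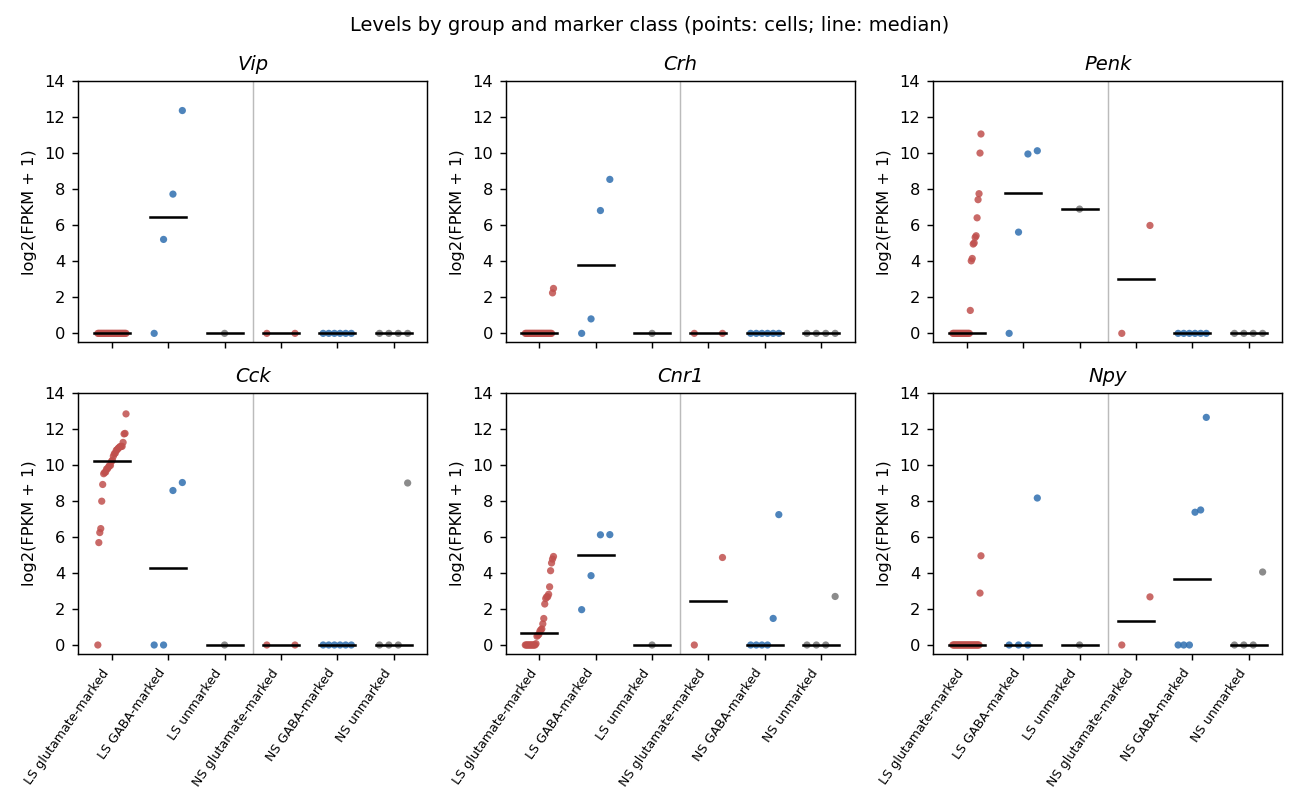
Levels of Vip, Crh, Penk, Cck, Cnr1 and Npy as log2(FPKM + 1) by group and marker class, with 1 point per cell and a line at the median of each class. Vip and Crh lie high in GABA-marked LS cells only, Cck in glutamate-marked LS cells, and the highest Npy and Cnr1 in GABA-marked NS cells.

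Sst (chr16, positions 23889573 to 23890958, minus strand) was nearly absent from LS cells. Its only LS reads were the 3 of LS_45, at 6.00 FPKM (1 of 35 cells, 2.86%, exact binomial interval 0.0723% to 14.9%). Among NS cells it was at 9164 FPKM in NS_16 and 177 FPKM in NS_8, and at 0 FPKM in the other 10. In NS_16, from 4019 reads, it was the highest of all genes of the cell, with 51.1 FPKM of Gad1, 324 FPKM of Gad2 and a receptor level of 2.45%. NS_16 also held 28.8 FPKM of Slc17a7, so a rule that allows no reads of the other class leaves it unmarked. NS_8 had a receptor level of 98.8%, and the 99th percentile of its receptor genes, 246 FPKM, exceeded its Sst level. NS_16 held 98.1% of the summed NS level, so the log2 ratio of the means of -9.38 was -3.87 without it, which leaves NS_8 as the only NS cell with reads.

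Npy (chr6, positions 49822710 to 49829507, plus strand) had reads in 5 of 12 NS cells (41.7%, exact binomial interval 15.2% to 72.3%), while 3 of 35 LS cells (8.57%, 1.80% to 23.1%) did. The NS cells with reads were NS_12 with 6336 FPKM, NS_6 with 179 FPKM, NS_16 with 164 FPKM, NS_14 with 15.6 FPKM and NS_8 with 5.37 FPKM. In NS_6 and NS_8, with receptor levels of 86.1% and 98.8%, Npy lay below the 99th percentile of the receptor genes (308 and 246 FPKM), and 3 of the 12 NS cells (25%) had Npy above it. Npy was the second highest gene of NS_12, from 3754 reads. The LS cells with reads were LS_14 with 284 FPKM, LS_6 with 29.9 FPKM and LS_17 with 6.37 FPKM. The groups overlap, and the log2 ratio of the means of -5.78 was -1.75 without NS_12. In NS_16 Npy accompanied Sst, and in LS_14 it accompanied Calb2, Crh, Penk and Cnr1.

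Pvalb (chr15, positions 78191114 to 78206400, minus strand) was found in 3 of 35 LS cells and 1 of 12 NS cells, and in none of the GABA-marked cells. The LS cells were the glutamate-marked LS_34 with 243 FPKM, LS_33 with 14.9 FPKM and LS_4 with 10.3 FPKM, and the NS cell was the unmarked NS_14 with 353 FPKM. The log2 ratio of the means, -1.81, was 3.12 without NS_14 and -4.13 without LS_34, so it gives no direction. NS_14 had no read of Gad1 or Gad2, and its summed level of 4 astrocyte markers was 696 FPKM. It also held 101 FPKM of Lhx6, became GABA-marked with wider marker lists and had a receptor level of 2.77%.

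Calb2 (chr8, positions 110137502 to 110168210, minus strand) was at 358 FPKM in LS_14 and 103 FPKM in LS_6 among LS cells, and at 232 FPKM in NS_2, 47.2 FPKM in NS_6 and 24 FPKM in NS_7 among NS cells. The 3 NS cells had receptor levels of 27.9% to 86.1%, and after thinning to 200000 reads, which left out all 3, no NS cell had a read of Calb2. The log2 ratio of the means, -0.89, then became 3.98. Tac1 (chr6, positions 7554879 to 7565834, plus strand) was under 2 FPKM in each of the 47 cells, with 6 reads over LS_9, LS_4 and LS_44 and none in NS cells.

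**Figure D4:**
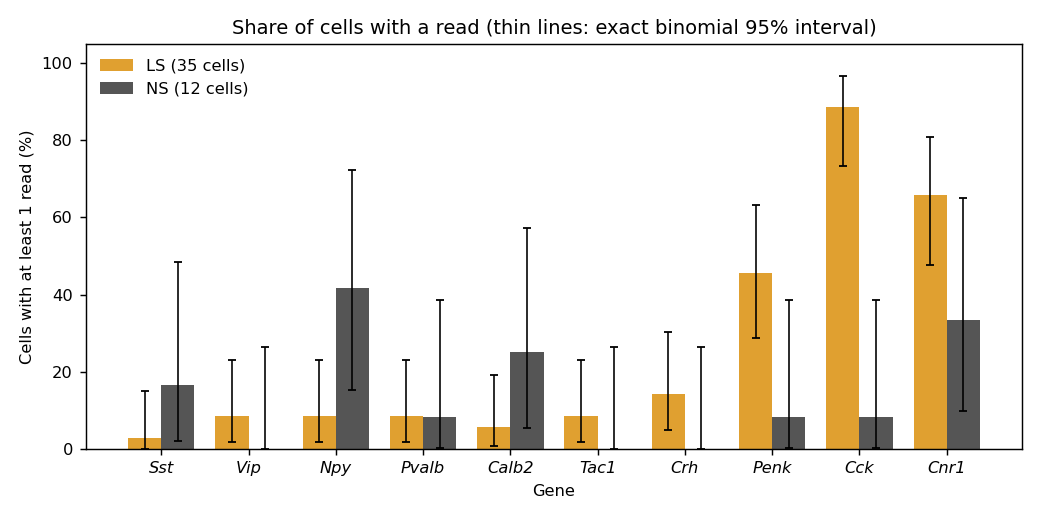
Percentage of LS and NS cells with at least 1 read of each gene, with exact binomial 95% intervals as thin lines. Cck had reads in 88.6% of LS and 8.33% of NS cells. The intervals cover counting error only and are no test between the groups.

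Set beside all genes, the members moved in both directions between LS and NS cells. Of the 9 with a mean of at least 1 FPKM in either group, 4 (Vip, Crh, Penk and Cck) had a log2 ratio of at least 2.5 towards LS and 2 (Sst and Npy) towards NS. Of all 16760 such genes, 9.41% passed that size towards LS and 14.4% towards NS. Without the highest cell of each group the counts were 3 and 2. With the means of log2(FPKM + 1) they were 2 (Penk and Cck) and 0. The median log2 ratio was -0.83 over the 9 members and -0.17 over all genes. Cck was also the only member whose share of cells with a read was higher in LS by at least 50 points (80.2 points), as it was for 8.80% of 19515 genes. No member was lower by as much, which held for 0.0564% of genes.

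Between the marker classes of LS cells, 5 of the 8 members with a mean of at least 1 FPKM (Vip, Crh, Npy, Calb2 and Cnr1) had a log2 ratio of at least 2.5 towards the GABA-marked cells, and 2 (Cck and Pvalb) towards the glutamate-marked cells. Over all 14454 genes these shares were 5.33% and 11.5%. The median log2 ratio was 3.59 over the 8 members and -0.60 over all genes. By shares of cells, Vip (75.0 points) and Crh (68.3 points) were higher in GABA-marked cells by at least 50 points, as were 0.801% of 18485 genes, and no member was lower by as much, as were 3.80%. The share of Crh counts LS_39, with 1 read, at a level under the 99th percentile of its receptor genes (0.969 FPKM). Above that percentile of the own cell, Vip and Crh each stood in 2 of 4 GABA-marked cells, and in 0 and 1 of 30 glutamate-marked cells. Since the GABA-marked class holds 4 cells, single cells weigh heavily. Without LS_14 the ratio of Calb2 fell from 4.35 to -2.15 and that of Npy from 5.03 to -1.14, and without LS_34 that of Pvalb was -0.90 in place of -3.31. Without LS_9 the ratio of Cnr1 was 2.41 in place of 2.84, and without LS_39 that of Cck was -2.33 in place of -2.74. Vip and Crh stayed at 6.38 and 4.91 or more without any 1 cell.

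No cell had reads of more than 1 of Sst, Vip and Pvalb. In the 63 cells 13 had reads of exactly 1 of them and 50 of none. Sst, Vip and Pvalb had reads in only 5, 3 and 5 of the 63 cells. Genes this rare would seldom share a cell in any case, so the lack of overlap tells nothing of classes. Of the 4 GABA-marked LS cells, 3 had Vip, and LS_14 had none of the 3 genes. Of the 6 GABA-marked NS cells, NS_16 had Sst and 5 had none. The number of members with reads in a cell was 4 to 5 in GABA-marked LS cells, with a median of 4.5, and 0 to 2 in GABA-marked NS cells, with a median of 1.5. The NS cells were also shallower, and the part of depth in that gap was not tested.

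Over the 35 LS cells, the genes most like Cck in log2(FPKM + 1), among 9665 with reads in at least 10 of them, were Chn1 (r = 0.91), Apbb1 (r = 0.88) and Cpne6 (r = 0.84). Those most like Penk were Ugdh (r = 0.67), Nrp2 (r = 0.59) and Ibtk (r = 0.56), and those most like Cnr1 were Csdc2 (r = 0.68), Hdac5 (r = 0.63) and Slc25a51 (r = 0.60). The other 7 members had reads in too few LS cells. With Slc17a7, Cck had r = 0.69, Penk r = -0.48 and Cnr1 r = -0.35 over the same cells, and Cck with Cnr1 had r = -0.13. These are likenesses across cells of 1 sample.

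Receptors for the peptides were mostly sparse. Of 19 listed peptide receptors, 13 reached a mean of 1 FPKM in either group, with a median log2 ratio of -1.37. Among these, 2 passed the log2 ratio of 2.5 towards LS and 4 towards NS. Over all 16760 genes with such a mean, 9.41% and 14.4% passed, with a median of -0.17. Cckbr, the brain receptor for cholecystokinin, had an LS mean of 60.6 ± 79.3 FPKM (SD, n = 35 cells), was detected in 24 of them, and is listed at 0 in the 12 NS cells. Within LS cells it was present in 22 of 30 glutamate-marked cells at a mean of 63.2 FPKM and in 1 of 4 GABA-marked cells, LS_9, at 0.794 FPKM. The somatostatin receptor Sstr4 had 6.64 ± 17.8 FPKM (SD, n = 35 cells) over the LS cells, with reads in 8, and is also listed at 0 in NS cells. Towards NS stood the somatostatin receptors Sstr3 (log2 ratio -4.24) and Sstr5 (-3.57), the VIP receptor Vipr2 (-3.65) and the CRH receptor Crhr2 (-2.84). Their highest NS values lay in NS_11, NS_9, NS_12 and NS_4, with receptor levels of 92.8%, 43%, 12.8% and 21.8%, whose part in these ratios was not tested.

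Of 9 genes that make, break or assist endocannabinoid signals, 2 passed towards LS and 1 towards NS, beside 9.41% and 14.4% of all genes. Abhd6, which degrades the endocannabinoid 2-AG, had an LS mean of 38.4 ± 49.9 FPKM (SD, n = 35 cells, 27 of them with reads) and an NS mean of 1.19 ± 3.35 FPKM (SD, n = 12 cells, 2 with reads). Cnrip1, whose protein binds CB1, had an LS mean of 18.7 ± 21.3 FPKM (SD, n = 35 cells, 27 with reads) and an NS mean of 2.13 ± 6.86 FPKM (SD, n = 12 cells, 3 with reads). Napepld, which makes the endocannabinoid anandamide, had means of 2.86 FPKM (LS) and 42.9 FPKM (NS), where NS_11 alone had 492 FPKM. Between LS classes none passed towards the GABA-marked cells and 3 towards the glutamate-marked ones, beside 5.33% and 11.5% of all genes. Among the 3 was Dagla, which makes 2-AG, with reads in 27 of 30 glutamate-marked and 0 of 4 GABA-marked cells (named after its values were seen).

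Of 8 other cortical peptide genes found in the table, 7 were measured at 1 FPKM or more in either group. Among these, Cort and Pdyn passed towards LS and Gal towards NS, beside 9.41% and 14.4% of all genes. Cort, a peptide close to somatostatin, had reads in 2 LS cells and 76.4% of its sum in LS_35. Pdyn, the dynorphin precursor, had 75.6% of its sum in LS_3, and both are listed at 0 in NS cells. Gal, the galanin precursor, had 70.9 FPKM in NS cells, with 708 FPKM in NS_7, where the receptor level was 84.0%. Towards the GABA-marked LS cells stood Tac2 (log2 ratio 6.56, reads in 4 of 4 GABA-marked and 2 of 30 glutamate-marked cells), Pnoc (3 of 4 and 0 of 30) and Gal, whose reads came from LS_9. Over all genes 5.33% passed towards the GABA-marked LS cells. Tac2 and Pnoc, the precursors of neurokinin B and nociceptin, were named after their values were seen.

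Of 20 interneuron factors and class genes, 16 were measured, of which 2 passed towards LS and 3 towards NS. Over all genes 9.41% and 14.4% passed, so these counts lie near the shares of all genes. Lamp5 (LS mean 119 ± 141 FPKM, SD, n = 35 cells) and Calb1 (45.2 ± 53.1 FPKM, SD, n = 35 cells) passed towards LS, and within LS cells both passed towards the glutamate-marked class, with reads in 29 and 27 of its 30 cells. Towards NS were Lhx6 (log2 ratio -2.56), a factor of Sst and Pvalb interneurons, Sp8 (-5.32) and Slc32a1 (-3.50), the vesicular GABA transporter. Lhx6 had reads in 6 of 12 NS and 6 of 35 LS cells and was highest in NS_14, at 101 FPKM. Sp8 was highest in NS_6 and Slc32a1 in NS_11, with receptor levels of 86.1% and 92.8%, whose part was not tested. Towards the GABA-marked LS cells 5 of 17 passed (5.33% of all genes), among them Dlx1, Dlx6, Adarb2 and Htr3a (named after their values were seen). Lamp5 and Calb1 were the 2 that passed the other way (11.5% of all genes). Adarb2 had reads in 3 of 4 GABA-marked and 10 of 30 glutamate-marked cells, and Htr3a in 3 and 2. LS_14 alone held 96.2% of the summed Dlx1 of the GABA-marked class, 98.1% of Dlx6, 85.1% of Htr3a and 59.5% of Adarb2. Others of the list did not pass, among them Slc32a1 (log2 ratio 1.35) and Lhx6 (2.30). The class rule did not use these genes.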

How the data were processed

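The authors trimmed the reads with AfterQC, aligned them to GRCm38 with STAR 2.5.3a, counted them with featureCounts and computed FPKM with scater, per the paper's methods and the submitters' processing notes. The deposited table holds FPKM, not counts, for 63 cells, and 0 of its columns stayed unused. Filters of the study (low cDNA by name, under 1000 genes above 1 FPKM, mitochondrial share above 25%, product scores above 0) were applied to these values and left 47 cells, a number other than that of the study. Reads were recovered from FPKM steps with GENCODE M21 exon lengths (6 members) or lengths solved from the values (Sst, Vip, Calb2 and Cck, the shortest length that gave whole reads, so that their reads are minimum numbers). Of low values, 99.8% were whole within 0.01 read. The recovery was tested on simulated data.

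Ratios are log2 of group mean FPKM + 1, a scale that understates the change of low genes. A log2 ratio of 2.5 is a description, and no test was run. The 10 members, the class markers, listed genes past that size between LS and NS, and the 3 genes most like a member were named. The values of 1 listed gene are not reported here. Members and lists were chosen with earlier results of these data known. Alternatives were other cells, summaries, units, thresholds, marker rules and each cell left out. Intervals are exact at 95%, and the limit for 0 cells is 3 counts over the number of cells. The scripts ran in Python 3.11.15 with scipy 1.17.1, pandas 2.3.3 and numpy 2.4.6.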

Additional observations from a re-analysis of the deposited data

Results flagged for a closer look

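Tac1 was highest in a cell that the filters removed, NS_17, at 25.5 FPKM, above all 47 cells used. That cell also held Sst, Npy and Cck and carried reads of Slc17a7, Neurod2, Gad1 and Gad2.

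Within the marker classes of 4 to 10 cells, 12 of 17 sets of values held a cell far from the others by Dixon's criterion. In GABA-marked LS cells these were Vip at 5266 FPKM in LS_15, Npy at 284 FPKM and Calb2 at 358 FPKM in LS_14, and Tac1 at 1.94 FPKM in LS_9. In GABA-marked NS cells they were Sst at 9164 FPKM in NS_16, Npy at 6336 FPKM in NS_12 and Cnr1 at 149 FPKM in NS_13. In unmarked NS cells they were Calb2 at 232 FPKM in NS_2 and, in NS_14, Pvalb at 353 FPKM, Cck at 507 FPKM, Npy at 15.6 FPKM and Cnr1 at 5.47 FPKM. A set with reads in only 1 cell is flagged by this criterion whatever its level, so the count has no chance rate beside it. Of the sets flagged, only Vip in GABA-marked LS cells and Npy and Cnr1 in GABA-marked NS cells had reads in more than 1 cell.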

How the results depend on the processing

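Ratios of means rest on few cells. Members past the log2 ratio of 2.5 towards LS numbered 4, against 2 with means of log2(FPKM + 1) and 1 with medians. Towards NS they numbered 2, against 0 with either summary and 4 among cells with a receptor level under 10%. Towards glutamate-marked LS cells they numbered 2, against 1 with means of log2 or medians and 0 with wider marker lists. The cause was not tested.

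Leaving out 1 cell at a time gave 3 (without LS_15) to 5 (without NS_14) members towards LS and 1 (without NS_12) to 3 (without LS_34) towards NS. It gave 2 (without LS_14) to 6 (without LS_41) towards GABA-marked and 1 to 2 towards glutamate-marked cells, and 1 to 1 for the shares of cells with a read. Without LS_14 the class ratios of Calb2 and Npy turned to -2.15 and -1.14, and without LS_6 they were 6.50 and 5.88.

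Without the highest cell of each group, with markers held above the receptor genes and with all 46 LS cells, alternatives chosen after seeing the data, no count moved by over 1.5 times. No paired analysis was possible because the numbers that LS and NS cells share only name cells, and no result comes from a test. At the median NS depth the median LS level of Cnr1 corresponds to 1.93 reads.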
